A study of Mus musculus with 6 samples.

Results

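The genes described here encode the channels that start and shape the cardiac action potential and the proteins that pass it from cell to cell: voltage-gated sodium channels, voltage-gated calcium channels, pacemaker (HCN) channels and connexins. They were chosen by name, as the protein-coding genes called Scn (alpha and beta subunits), Cacna1, Cacna2d, Cacnb, Cacng, Hcn, or Gja to Gje followed by a number, which gave 64 of the 56748 genes in the table. Heart RNA was sequenced from 3 Pontin cTG mice and from 3 WT littermates, males on a C57Bl/6 background that were 10 weeks old at the start of treatment. Every mouse of both groups received Ang-II (angiotensin II, a hormone that raises blood pressure and drives hypertrophy) for 2 weeks from a mini-osmotic pump delivering 1.5 mg/kg BW/day, so no untreated hearts enter the comparison. In the cTG animals the αMHC promoter, a cardiomyocyte promoter, drives human Pontin cDNA with a flag tag. The comparison asked whether overexpressed Pontin, an ATPase of the AAA+ family, altered these transcripts in the Ang-II-stressed heart.

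In a working ventricular myocyte, the sodium channel fires the upstroke, the L-type calcium channel holds the plateau and triggers contraction, and gap junctions built from connexins carry the current to the neighbouring cell. Each pore-forming subunit is joined by accessory subunits that set its gating and its delivery to the membrane. HCN channels open on hyperpolarisation and drive the spontaneous beating of nodal cells, and they are known to be re-expressed in stressed ventricle.

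Total counts were 12436822 to 13194038 per WT library and 14584102 to 16888124 per Pontin cTG library. Mouse Ruvbl1, the gene for Pontin, ranged from 216 to 221 normalised counts in WT and from 240 to 250 in Pontin cTG hearts (log2 fold change 0.18, SE 0.12). Counts on the mouse gene are no direct measure of the human cDNA, and whether reads from that cDNA were counted there was not tested. Of the markers checked against the tissue label, cardiomyocyte genes were abundant (Tnnt2, cardiac troponin T, 60107 to 82380 normalised counts). Of 8 atrial markers, Sln, Myl7 and Bmp10 reached at most 1.12, 6.73 and 0.98, and the other 5 were present, with Nppa at 360 to 7716, Stard10 at 188 to 390, Nr2f2 at 109 to 182, Dkk3 at 34.7 to 205 and Myl4 at 8.81 to 43.7. The part of atrial tissue in the samples was not tested. The skeletal muscle myosins Myh1 and Myh4 were at 0 in every library. Pontin cTG replicate 2 stood apart. On the first principal component, which held 48.6% of the variance, it scored 50.9 against -23.1 to 16.2 in the other 5 libraries, so estimates that moved with it are also given without it or as ranges over left-out libraries.

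Of the 64 genes, 32 passed the low-count filter and were tested. The other 32 did not pass: 9 had 0 counts in every library and 23 had total counts of 1 to 66 over the 6 libraries, led by Cacna2d3 with 66 and Scn2a with 44. The neuronal channels Scn1a (5 counts in all), Scn9a (0), Cacna1b (13) and Cacna1e (5), the pacemaker channel Hcn3 (13) and 14 of the 20 connexins, among them the epithelial Gjb group, were in this set. Levels are given as normalised counts (counts scaled by the TMM method), and levels of different genes are compared per kb of gene length.

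The heart used few of these genes heavily. Gja1 held 27.4% of all counts on the 64 genes, Cacna2d1 13.9% and Cacna1c 13.6%. Per kb, the order of the genes named here began in WT hearts with Gja1 at 691 ± 49.3 (SD, n = 3). Cacna2d1 followed at 286 ± 14.9, a gap larger than their spread. Cacna1c (151 ± 7.84), Scn4b (143 ± 35.6), Hcn2 (125 ± 50.8) and Gja3 (105 ± 8.95) formed a run in which no neighbours differed beyond their spread. At the low end, Cacna1d stood at 1.49 ± 0.33.

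**Figure D1:**
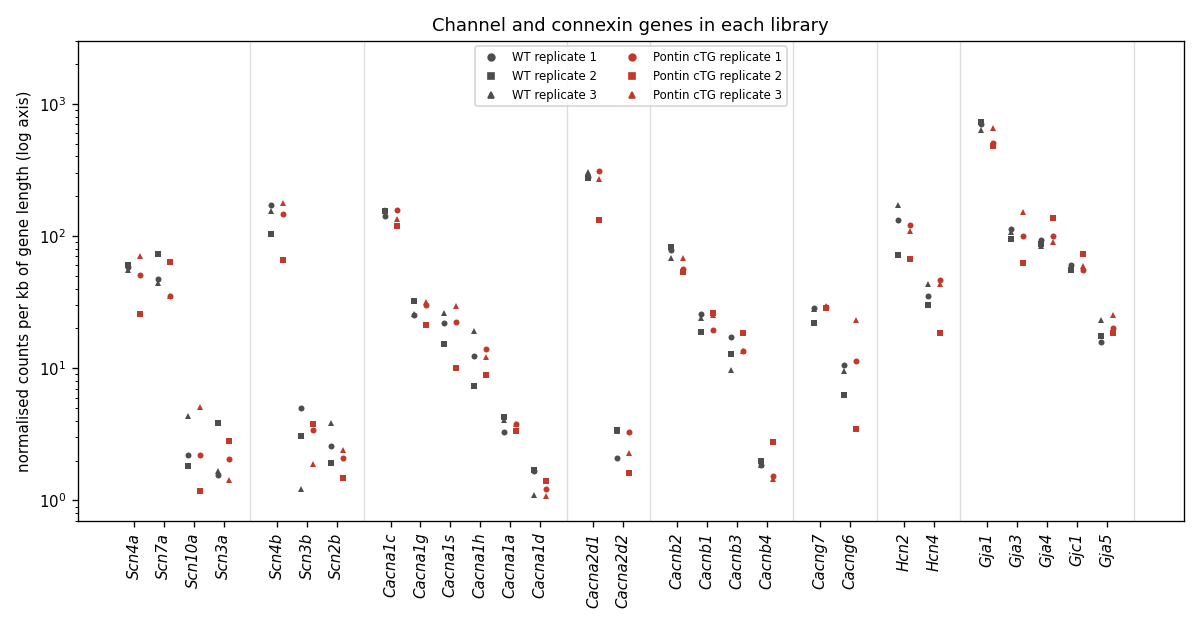
Normalised counts per kb of gene length (log axis) for 28 tested genes, grouped by family, with 1 point per library in grey (WT) and red (Pontin cTG). Gja1 leads at 691 per kb in WT, Cacna1d is lowest at 1.49, and the grey and red points of nearly every gene intermingle.

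No channel or connexin gene passed the test between genotypes. At an adjusted p under 0.05 in edgeR's quasi-likelihood test, 0 of the 32 tested genes were called, against a background of 0% of the 13888 genes tested, and DESeq2 also called 0 of them. At an unadjusted p under 0.05, 0 had a higher level in Pontin cTG hearts (background 1.02%) and 2 had a lower one (background 1.03%), Cacnb2 among them. DESeq2 also had 2 at that level. All 3 Pontin cTG libraries lay above all 3 WT libraries for 1 of the 32 genes, Cacng7 (3.13%; background 4.7%), and below them for 0 (background 3.63%). For 1 gene, 3 hearts against 3 allow no exact permutation p below 0.1.

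The estimates leaned to lower levels in Pontin cTG hearts, more so for the longer genes. The log2 fold change was below 0 for 22 genes and above 0 for 10, that is 68.8% below 0 against 49.8% of all genes tested, and the median was -0.089 against 0.0013 for all. The tested channel genes are long, with a median gene length of 6796 bases against 4318 for all genes tested. Of the 16 longer ones, 14 were below 0 (median -0.25). Of the 16 shorter ones, up to 6550 bases, 8 were below 0 (median 0.030). Over all genes tested, 70.6% of those longer than 6550 bases and 42.3% of the rest were below 0. When each library's trend of counts with gene length was removed, 17 channel genes were below 0 and 15 above, with a median of -0.020. Without Pontin cTG replicate 2 the split was also 17 to 15. The part of transcript length or RNA quality in these estimates was not tested.

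**Figure D2:**
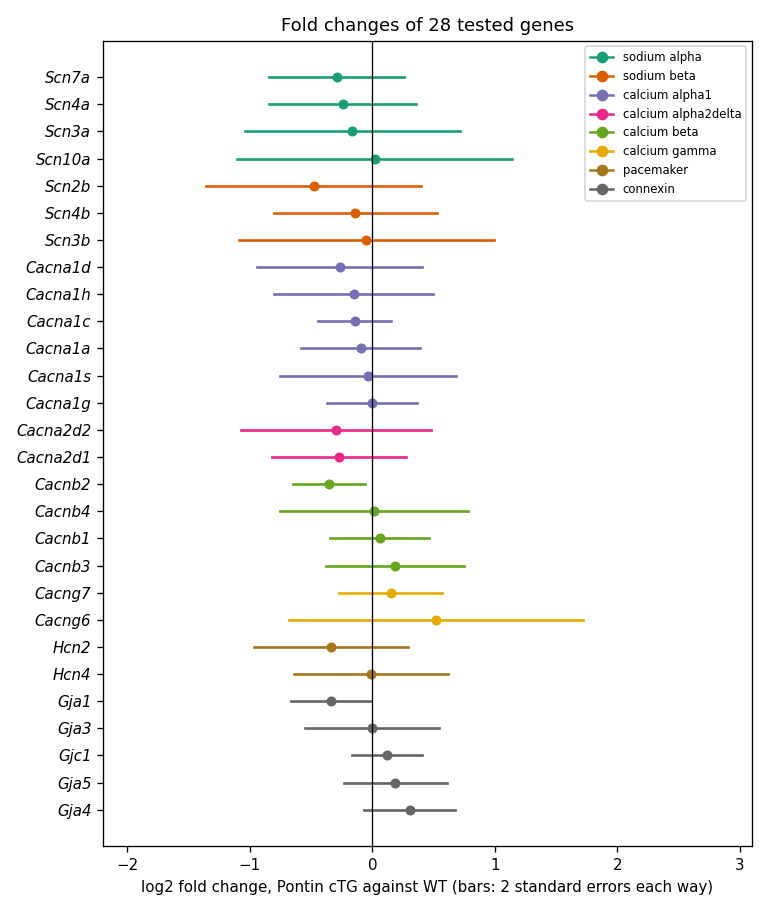
Log2 fold changes of 28 tested genes (x axis, Pontin cTG against WT), 1 row per gene coloured by family, with bars of 2 standard errors each way. 19 of these points lie left of 0 and 9 right of it, and the bars of Cacnb2 and Gja1 are the ones that end short of 0. Such a bar is no call: Gja1 had an unadjusted p of 0.069 in edgeR's quasi-likelihood test.

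Among the sodium channel alpha subunits, 5 of 10 were tested, 4 with a log2 fold change below 0 and 1 above. Scn4a, the skeletal muscle sodium channel, had 413, 422 and 387 in WT and 356, 180 and 497 in Pontin cTG hearts (log2 fold change -0.24, SE 0.30, adjusted p = 0.999 in edgeR, as for every gene tested in these families apart from Gja3). In tissue RNA, fewer cells of a type and less RNA per cell cannot be told apart. The cTG values of Scn4a lay on both sides of the WT range. Scn7a encodes a sodium-sensing channel known from glia and other non-myocytes. It had 348, 534 and 324 in WT and 257, 469 and 259 in Pontin cTG hearts (log2 fold change -0.29, SE 0.27), with replicate 2 highest in each group. The estimate was -0.64 without cTG replicate 2 and -0.034 without WT replicate 2. The summed level of 6 fibroblast markers was also highest in replicate 2 of each group (range 10803 to 16341 in WT and 10872 to 15869 in cTG), as was that of 6 glial markers (130 to 175 and 108 to 211). The sums of 7 cardiomyocyte markers (632666 to 742725 and 623660 to 682752) and 6 macrophage markers (4348 to 7503 and 3654 to 5186) were highest there too. The single cardiomyocyte markers were mixed. Myh6, the largest term of the sum, and Tnnt2 were highest in replicate 2 of each group, and Tnni3 was intermediate in both. In replicate 2, Actc1 (175512) and Mb (72435) were lowest of the WT hearts, and Ryr2 (10842) and Pln (20990) lowest of the cTG hearts. Of all genes tested, 22.2% were highest in replicate 2 of both groups. Whether any of these cell types had a part in the Scn7a values was not tested. Scn10a and Scn3a had estimates of 0.021 (SE 0.56) and -0.16 (SE 0.44), and both were under 3 per kb in WT.

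All 4 sodium channel beta subunits, which anchor the channel and tune its gating, were tested and all 4 estimates were below 0, none with a call. Scn4b had 855, 513 and 765 in WT and 733, 326 and 878 in Pontin cTG hearts (log2 fold change -0.14, SE 0.33). Replicate 2 was the lowest of each group, in the cTG group at 40.5% of the mean of the other hearts. Scn3b and Scn2b were low (3.12 and 2.79 per kb in WT), with estimates of -0.048 (SE 0.52) and -0.48 (SE 0.44).

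For calcium channels, the pore-forming alpha1 subunits gave 6 tested of 10, all with estimates below 0 and none called. Cacna1c, the L-type channel of working myocardium (GRCm38 chr6:118587240-119196418, minus strand), had 3102, 3389 and 3408 normalised counts in WT and 3407, 2606 and 2953 in Pontin cTG hearts. The highest cTG value lay within the WT range, and the means were 3300 ± 171 and 2989 ± 402. The log2 fold change was -0.14 (SE 0.15), with a 2 SE interval of -0.44 to 0.15. The T-type channels Cacna1g and Cacna1h, which open near the resting potential, had estimates of -0.00076 (SE 0.18) and -0.15 (SE 0.33). Cacna1s, the skeletal muscle L-type channel, stood at -0.035 (SE 0.36), and Cacna1d, the L-type channel of nodal cells, at -0.27 (SE 0.34) with only 16.5 to 25.8 normalised counts per library. Dcp1b overlaps Cacna1c and Dcp1a overlaps Cacna1d, with 335 and 1204 counts in all. Whether counting used strand is not stated, and whether any reads were shared there was not tested.

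Accessory subunits of the calcium channel gave estimates of both signs. Cacna2d1, the extracellular alpha2delta subunit that brings the channel to the surface (chr5:15934691-16374511, plus strand), had 3477, 3407 and 3757 in WT and 3817, 1637 and 3352 in Pontin cTG hearts. A single heart, cTG replicate 2, set the difference: it was at 45.7% of the mean of the other cTG hearts, and one of those exceeded every WT heart. The log2 fold change was -0.27 (SE 0.27), and 0.016 without that library. Cacna2d2 was far rarer (2.95 per kb in WT) with an estimate of -0.30 (SE 0.39).

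Cacnb2 had the smallest p of the calcium channel genes. It encodes the main cardiac beta subunit, a cytosolic protein that carries the L-type pore to the membrane (chr2:14603088-14987908, plus strand). Its normalised counts were 1033, 1088 and 894 in WT and 750, 701 and 908 in Pontin cTG hearts. The highest cTG heart lay just above the lowest WT heart, so the groups overlapped by 1 pair. The mean was 1005 ± 99.9 in WT and 786 ± 108 in Pontin cTG hearts, 78.2% of WT. Fitted across all genes, the log2 fold change was -0.35 (SE 0.15, 2 SE interval -0.65 to -0.061, adjusted p = 0.999 in edgeR). Its unadjusted p in edgeR's quasi-likelihood test was 0.039, and the exact permutation test gave p = 0.2. With 1 library left out at a time, the unadjusted p stayed under 0.05 without WT replicate 3 or cTG replicate 3 and exceeded it without any of the remaining 4, and the estimate ran from -0.47 to -0.28. With the gene length trend removed the estimate was -0.21 (unadjusted p = 0.19 in edgeR), and without replicate 2 of both groups it was also -0.21. Gm37891, with 45 counts in all, overlaps Cacnb2. The other beta subunits, Cacnb1, Cacnb3 and Cacnb4, had estimates of 0.060 (SE 0.20), 0.18 (SE 0.28) and 0.012 (SE 0.38). Cacnb2 therefore held a smaller part of the beta subunit transcripts per kb: 63.6, 70.9 and 65.5% in WT against 62.1, 52.7 and 63.1% in Pontin cTG hearts. These shares did not overlap between the groups, also without cTG replicate 2, and the exact permutation test gave p = 0.1, the smallest it can give (0.4 adjusted over the 8 families). The difference of -7.38 percentage points per kb became -4.06 without cTG replicate 2 and -4.44 when counts were not divided by length.

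The gamma subunits are membrane proteins related to the skeletal muscle calcium channel subunit. Cacng7 had 69.4, 53.8 and 68.2 normalised counts in WT and 70.3, 70.2 and 71.9 in Pontin cTG hearts. Every cTG heart was above every WT heart, by a gap of under 1 count, and 1 low WT heart carried most of the difference in means (63.8 ± 8.65 and 70.8 ± 0.95, log2 fold change 0.15, SE 0.21). Cacng6 had 20.9, 12.3 and 19.0 in WT and 22.5, 6.85 and 45.9 in Pontin cTG hearts, with an estimate of 0.52 (SE 0.60). It varied most among the cTG hearts, which held both the lowest and the highest value.

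**Figure D3:**
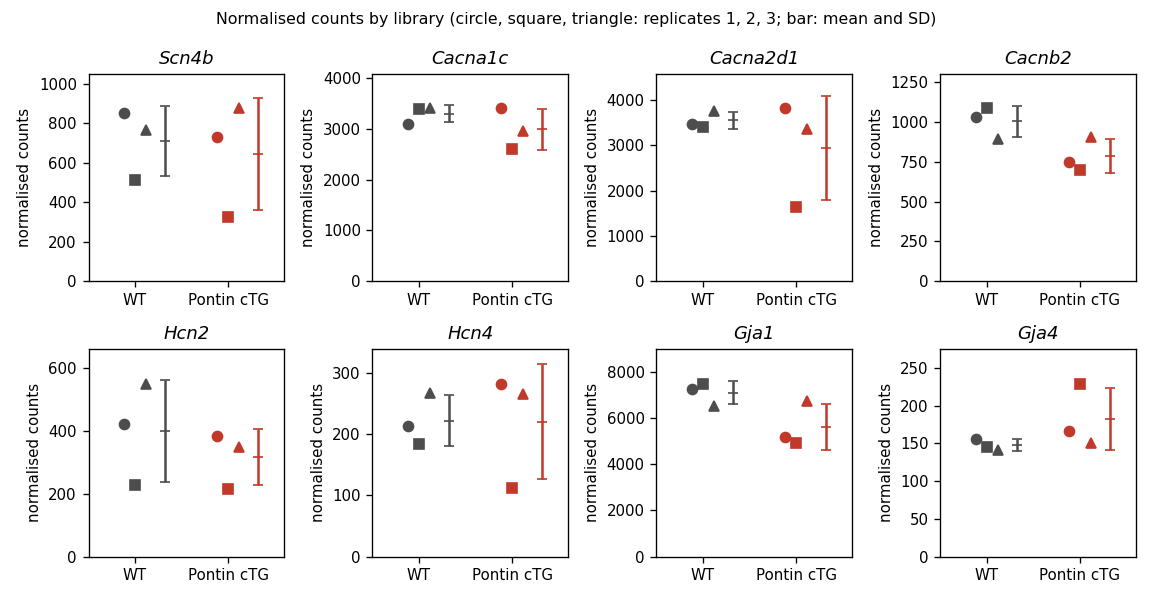
Normalised counts of 8 genes in each heart (circle, square and triangle for replicates 1, 2 and 3; bar for the mean and SD of 3 hearts), each axis starting at 0. The mean of Cacnb2 is 1005 in WT and 786 in Pontin cTG hearts, with no call. The low point is cTG replicate 2 in every panel apart from that of Gja4, and the groups overlap in every panel.

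Of the 4 pacemaker channels 3 were tested, all with estimates below 0. Hcn2, the main ventricular pacemaker channel, was the most abundant of the family (125 per kb in WT). It had 422, 229 and 551 normalised counts in WT and 386, 216 and 350 in Pontin cTG hearts, with replicate 2 lowest in each group. Its log2 fold change was -0.34 (SE 0.31), and it was -0.62 without WT replicate 2, -0.031 without WT replicate 3 and -0.12 without cTG replicate 2. Hcn4, the defining channel of the sinoatrial node, had 214, 184 and 266 in WT and 282, 112 and 265 in Pontin cTG hearts, and the estimate was -0.012 (SE 0.31). Its cTG values lay on both sides of all WT values. The other nodal and conduction markers were mixed. Isl1 was at 0 in every library, Vsnl1 at 0 in all but 1 and Shox2 at 3.91 to 14.6, while Tbx3 was at 121 to 186, Cntn2 at 57.3 to 122 and Smoc2 at 1080 to 1199. The 7 nodal and conduction markers, Hcn4 among them, summed to between 1495 and 1668 in WT and between 1552 and 1701 in Pontin cTG hearts. Smoc2 was the largest term of this sum in every library.

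Connexins form the gap junctions between myocytes and between vascular cells. Of 20 connexin genes, 6 were tested, 4 with estimates above 0 and 2 below, none called. Gja1, connexin43 of the working ventricle (chr10:56377330-56402513, plus strand), had 7259, 7489 and 6522 normalised counts in WT and 5169, 4911 and 6749 in Pontin cTG hearts. Only cTG replicate 3 reached into the WT range, and the means were 7090 ± 505 and 5610 ± 995, 79.1% of WT. The log2 fold change was -0.34 (SE 0.16, 2 SE interval -0.67 to -0.010, adjusted p = 0.999 in edgeR, unadjusted p = 0.069 in its quasi-likelihood test), and the exact permutation test gave p = 0.2. With 1 library left out at a time, the Gja1 estimate ran from -0.49 to -0.25, and it was -0.23 with the gene length trend removed. Gja3, better known from the lens, averaged 312 in both groups, with 335, 283 and 317 in WT and 298, 187 and 450 in Pontin cTG hearts. Gjc1 (connexin45, the connexin of nodal cells) had an estimate of 0.12 (SE 0.14).

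Gja4 and Gja5 are the connexins of arterial endothelium, the latter also of atrium and conduction system. Gja4 had 156, 146 and 141 in WT and 167, 229 and 151 in Pontin cTG hearts (log2 fold change 0.30, SE 0.19). The highest value was from cTG replicate 2, replicate 3 overlapped WT, and the estimate was 0.10 without cTG replicate 2. Gja5 had 90.3, 99.8 and 132 in WT and 115, 106 and 146 in Pontin cTG hearts (0.19, SE 0.21), with estimates of 0.044 without cTG replicate 3 to 0.37 without WT replicate 3. In WT hearts the summed level of 5 arterial endothelial markers, Gja4 among them, ranged from 1210 to 1357, and in Pontin cTG hearts from 1231 to 1767, again highest in cTG replicate 2, with 5 of 5 estimates above 0 and none at an unadjusted p under 0.05. The part of endothelial content in the Gja4 and Gja5 values was not tested. The span of Gpr89 (1482 counts in all) overlaps that of Gja5 on the opposite strand, and whether any reads were shared was not tested.

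Gja1 took a smaller part of the connexin transcripts per kb in Pontin cTG hearts. It held 70.8, 73.5 and 69.5% in WT (mean 71.2 ± 2.03) and 64.2, 61.2 and 65.8% in Pontin cTG hearts (mean 63.7 ± 2.30). The groups did not overlap, and the exact permutation test gave p = 0.1, the smallest possible (0.4 adjusted over 8 families). The difference was -7.51 percentage points per kb and -3.60 when counts were not divided by length. A share within a library does not depend on the scaling between libraries, but it can move with each library's trend of counts with gene length. Gja1 (10257 bases) and Cacnb2 (13228 bases) are the longest tested genes of their families. The next longest are Gja5 (5746 bases) and Cacnb4 (8963 bases). No share was computed with the length trend removed, so its part in these differences was not tested. In the other families of the plot the share overlapped between groups: Cacna1c held 69.1 and 68.0% of the alpha1, Cacna2d1 98.6 and 98.4% of the alpha2delta and Hcn2 73.7 and 72.6% of the pacemaker transcripts in WT and Pontin cTG hearts. Family sums per kb overlapped in all 8 families, with a smallest exact permutation p of 0.2, for the calcium beta subunits.

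**Figure D4:**
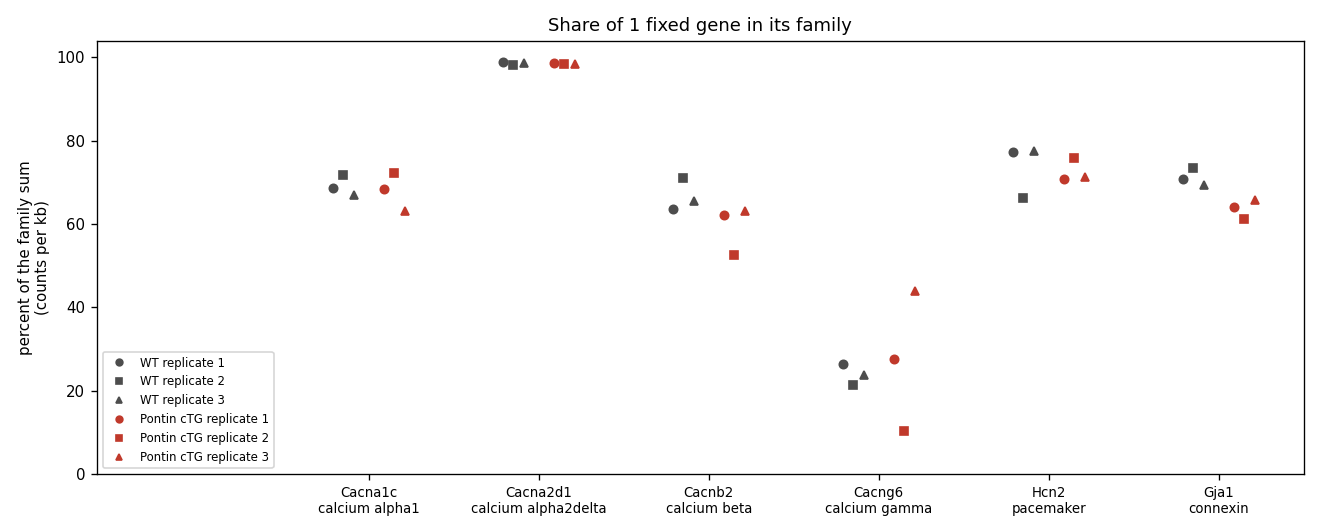
Percent of each family's summed counts per kb held by 1 fixed gene, in each of 3 WT (grey) and 3 Pontin cTG (red) hearts. This gene is the most abundant of its family apart from Cacng6, and WT and Pontin cTG points separate for Cacnb2 (66.7 and 59.3% on average) and Gja1 (71.2 and 63.7%).

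Because Gja1, Cacnb2, Gja4 and Gja5 had the smallest p among the reported genes with estimates below 0 (the first pair) and above 0 (the second pair), their promoters are shown, from RefSeq (GRCm38.p6), 5′ to 3′ from 250 bases before a start site up to the start or to the first annotated exon base. Capitals mark a match to a GATA motif (AGATAA) or an NKX2-5 motif (TNAAGTG) on either strand. Both factors are known regulators of cardiac genes. A search was also made for a TEAD motif (GGAATG) and a TATA box (TATAAA).
Gja1, chr10:56377050-56377299, plus strand: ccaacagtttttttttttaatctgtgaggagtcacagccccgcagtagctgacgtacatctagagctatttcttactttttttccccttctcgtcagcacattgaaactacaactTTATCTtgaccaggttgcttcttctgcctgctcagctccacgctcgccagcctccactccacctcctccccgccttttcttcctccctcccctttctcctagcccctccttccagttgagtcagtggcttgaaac
Cacnb2, second start, chr2:14823842-14824025, plus strand: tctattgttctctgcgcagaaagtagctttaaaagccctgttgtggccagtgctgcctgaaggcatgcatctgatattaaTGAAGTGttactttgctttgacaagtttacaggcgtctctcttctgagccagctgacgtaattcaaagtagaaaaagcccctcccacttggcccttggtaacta
Gja4, chr4:127314040-127314289, minus strand: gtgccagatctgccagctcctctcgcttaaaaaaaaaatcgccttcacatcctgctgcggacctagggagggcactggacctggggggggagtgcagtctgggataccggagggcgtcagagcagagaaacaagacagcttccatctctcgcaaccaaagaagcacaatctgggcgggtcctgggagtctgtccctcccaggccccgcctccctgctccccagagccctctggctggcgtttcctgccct
Gja5, chr3:97032152-97032401, plus strand: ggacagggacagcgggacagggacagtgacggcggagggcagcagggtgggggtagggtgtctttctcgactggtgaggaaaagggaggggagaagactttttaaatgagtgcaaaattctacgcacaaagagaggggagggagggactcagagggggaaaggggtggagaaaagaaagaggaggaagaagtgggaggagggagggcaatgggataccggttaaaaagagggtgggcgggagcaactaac

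The table held promoters for 44 of the 64 genes, in 59 windows of 250 bases. The GATA letters were in 2 of them, of Gja1 and Scn7a (3.39%, against 9.99% of all 32851 windows), and the NKX2-5 letters in 7 (11.9% against 10.1%). The TEAD letters were in 10 windows (16.9% against 12.6%) and the TATA letters in 6 (10.2% against 12.4%). The windows of Gja4 and Gja5 held none of the 4 motifs. A match is only a run of letters, and Gja1 and Cacnb2, whose estimates were the most negative of the genes shown, had different matches.

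Single hearts differed widely within the groups. Pontin cTG replicate 2 was the lowest of the 6 libraries for 16 of the 32 tested genes, 50% against 30.7% of all genes tested. It was the highest for 7, 21.9% against 30.2% of all genes tested. The channel and connexin counts were 0.125% of that library against 0.160 to 0.183% in the others. The low genes in that heart included Scn4b (40.5% of the mean of the other cTG hearts), Hcn4 (41.0%), Cacna2d1 (45.7%) and Gja3 (49.9%), while Scn7a (182%) and Gja4 (144%) were high. WT replicate 2 was at 47.0% of the mean of the other WT hearts for Hcn2. In all, 12 genes, among them Scn4b, Hcn2 and Hcn4, were lowest of their group in replicate 2 of both groups, 37.5% against 22.8% of all genes tested. Highest in replicate 2 of both groups were 4, 12.5% against 22.2%. Pontin cTG replicate 2 had 7716 normalised counts of Nppa, the natriuretic peptide gene induced by cardiac stress, against 360 to 1842 in the other 5 hearts. Without cTG replicate 2, 3 genes were at an unadjusted p under 0.05 in edgeR, among them Scn7a below (2.85% of all genes tested in that fit were below at this level) and Cacng6 above (2.05%). With that heart left out, 4 genes did not overlap between groups, Cacng7 and Cacng6 above (11% of all genes tested) and Scn7a and Cacnb4 below (10.5%). The part of the state of that heart in the genotype estimates was not tested.

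**Figure D5:**
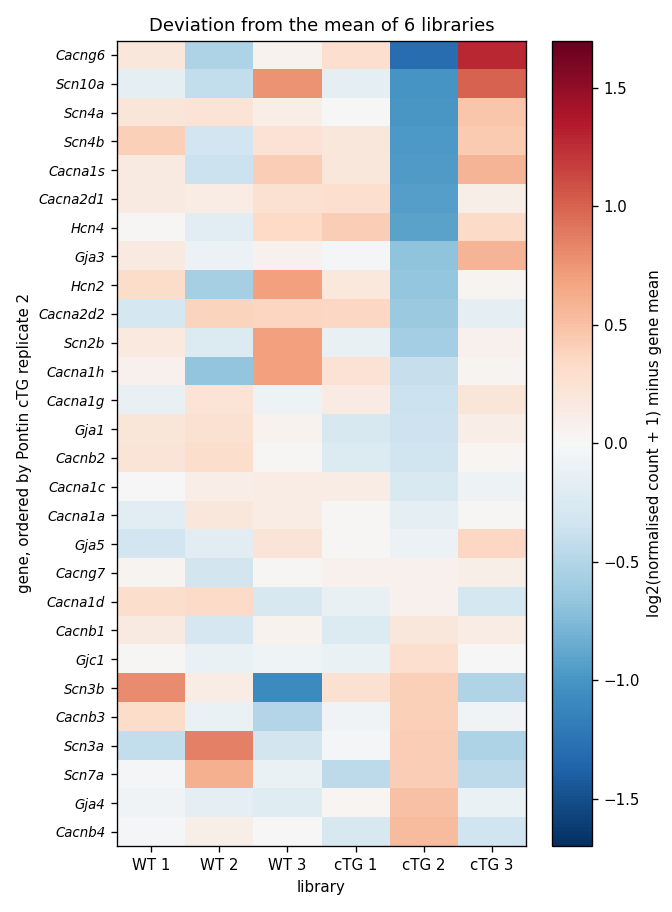
Heat map of the deviation of each of 28 tested genes (rows) from its mean over 6 libraries (columns), on the scale of log2(normalised count + 1), red above and blue below. The column of Pontin cTG replicate 2 is the most extreme: 15 of the genes have their lowest value there and 5 their highest.

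The machinery around the channels was described with a list of 70 partner and regulator genes (anchoring and scaffold proteins, junction proteins, calcium handling, other cation channels and transcription factors of conduction tissue), of which 60 were tested. Again 0 passed an adjusted p under 0.05 in edgeR, 18 estimates were above 0 and 42 below, and the median log2 fold change was -0.085. Over all genes tested, 49.8% of the estimates were below 0. With the gene length trend removed, the partner median was -0.047 and 0 of the 60 were at an unadjusted p under 0.05 in edgeR. In the main fit, 3 of the 60 were lower in Pontin cTG hearts at an unadjusted p under 0.05 (background 1.03%) and 0 higher (background 1.02%). Slc8a1, the sodium-calcium exchanger that removes calcium after each beat, had 6710, 7308 and 5722 normalised counts in WT and 5120, 3910 and 5518 in Pontin cTG hearts (log2 fold change -0.44, SE 0.17). Akap6, which anchors protein kinase A near the ryanodine receptor, had 3218, 3391 and 3105 in WT and 2848, 1461 and 2288 in Pontin cTG hearts (-0.56, SE 0.22). Tjp1 (ZO-1, the scaffold that binds the tail of connexin43) had 1644, 1632 and 1356 in WT and 1300, 1225 and 1214 in Pontin cTG hearts (-0.31, SE 0.13). For these 3 genes every cTG heart was below every WT heart. Over the 60 genes, 7 did not overlap in that direction (background 3.63%) and 1 in the other (background 4.7%), Cav3, the muscle caveolin (0.16, SE 0.13). The smallest unadjusted p values in the upward direction were those of Tbx3 (0.30, SE 0.18), Cav3 and Nkx2-5 (0.17, SE 0.15).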

How the data were processed

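RNA from hearts of 3 WT and 3 Pontin cTG mice (TruSeq RNA v2 kit, 100-base reads) was counted per gene. The authors deposited whole-number counts without normalisation. The study's methods name Trimmomatic, STAR, mm10 and Gencode M25, whereas the submitters' processing notes name fastp, HISAT2, featureCounts, DESeq2, GRCm39 and mm39, and the pipeline behind the table is not settled. Coordinates printed here are GENCODE M21 (GRCm38). The methods mention an outlier left out after principal component analysis without naming it, and elsewhere that none was.

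Genes were filtered (filterByExpr, minimum count 10), TMM-normalised and tested with edgeR 4.0.16 (quasi-likelihood, Benjamini-Hochberg over 13888 genes, adjusted p under 0.05) in R 4.3.3. The code was tested on simulated data. DESeq2 1.42.0, limma 3.58.1 (voom), other scalings and filters, a gene length offset and left-out libraries were alternatives. Exact permutation tests were two-sided. No column of sample values was left unmatched. The gene lists and members were chosen with earlier results of these data known. Named were the members best known in heart, those with the 3 smallest p in each direction or without overlap, and 6 partners by the same p rule. The results of 4 tested genes are not reported here, though counts and sums over families include them. Correlations of the deviations of same-numbered libraries were 0.077, 0.43 and 0.19. Only for replicate 2 was the same number the best match in both groups. The labels name no pairs, so the replicate block was an alternative only. No libraries were duplicates (chi-square per gene of at least 5.54).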

Additional observations from a re-analysis of the deposited data

How the results depend on the processing

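Across the alternatives, 0 of the named genes passed an adjusted p under 0.05, and the lowest adjusted p of a channel or connexin gene was 0.855 (edgeR, DESeq2 or limma). Counts at an unadjusted p under 0.05, main value 2, were 4 with voom, 1 with the gene length offset and 1 to 3 when 1 library was left out, and the partner count, main value 3, was 7 with voom, 0 with the length offset and 0 to 6 with 1 library left out. Reading the unadjusted p in place of the adjusted one gives 2 and 3 in place of 0. Leaving out replicate 2 of both groups, an alternative chosen after seeing the data, gave 4 and 7. With the replicate block, 3 channel genes and 6 partners were at that level, and Scn3b turned to 0.030. The labels do not say that the numbers pair the libraries, and a factor shared by same-numbered libraries was not tested. The Gja1 share differed by -7.51 points per kb and by -3.60 points in raw counts. Several directions turned. Cacna1g and Gja3 turned with library size alone (0.017 and 0.011), with 10 counts in every library (0.0046 and 0.0039) and with protein-coding genes only (0.0015 and 0.0020). With voom, Cacna1g became 0.20, Cacna1s 0.074, Cacna2d2 0.13, Cacnb3 -0.057, Hcn4 0.21, Gja3 0.031 and Gjc1 -0.030. With the length offset, Cacna1c became 0.058, Cacna1g 0.10, Cacna1s 0.0049 and Hcn4 0.018. Without replicate 2 of both groups, Scn4a became 0.098, Cacna1g 0.28, Cacna1s 0.11, Cacna2d2 0.035, Cacnb3 -0.014, Hcn4 0.19, Gja3 0.20 and Gjc1 -0.034. Over the fits with 1 library or both replicates 2 left out, estimates ran from -0.42 to 0.49 (Scn3b), -0.43 to 0.18 (Scn4b), -0.61 to 0.098 (Scn4a), -0.11 to 0.28 (Cacna1g), -0.44 to 0.25 (Cacna1h), -0.38 to 0.30 (Cacna1s), -0.50 to 0.016 (Cacna2d1), -0.58 to 0.035 (Cacna2d2), -0.014 to 0.42 (Cacnb3), -0.23 to 0.31 (Hcn4), -0.37 to 0.27 (Gja3), -0.034 to 0.21 (Gjc1), -0.27 to 0.98 (Cacng6), and with the direction kept -0.64 to -0.034 (Scn7a), -0.62 to -0.031 (Hcn2), 0.096 to 0.43 (Gja4), 0.044 to 0.37 (Gja5), -0.47 to -0.21 (Cacnb2) and -0.49 to -0.21 (Gja1). The causes were not tested. With 3 hearts per group, the parts of depth and of the spread between hearts in each SE were not tested. Genes of under 30 normalised counts carry more counting error relative to their level.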
